A study of Mus musculus with 9 samples.

Results

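The genes described here are 48 regulators of the trithorax and Polycomb systems, chosen by name as the Kmt2 (MLL) complexes, the Polycomb complexes and the acetyltransferases and deacetylases that work beside them. They are 48 of the 37980 genes in the table, and all 48 were found in it by matching Ensembl identifiers to symbols. RNA was sequenced from myeloid progenitors (MPs, Lin-c-kit+Sca1-) of C57BL/6 mice, 100000 cells per sample, sorted from the bone marrow of lethally irradiated adult recipients of multipotent progenitors (MPPs). The 4 NA MP samples were Tdtomato+ progeny of MPPs carrying NA, the NUP98-HOXA10hd fusion gene, which is expressed from the Rosa26 locus after recombination by Vav-Cre, a Cre active in blood cells. The 5 WT MP samples were CD45.2+ cells of mice that had been given WT MPPs. Labels place the sort at 3 months after transplantation and the study's methods at 4 months. Recipients were 8 to 10 weeks old when irradiated, were themselves CD45.2+ and also received helper marrow. The study follows WT donor cells in blood by CD45.1, and by that marking CD45.2+ WT MPs would be helper or host cells. Their origin cannot be told apart, so each difference may compare cells that differ in origin as well as in genotype. Whether each sample came from its own mouse is not stated, so p-values measure the spread between these samples, which may in part be technical.

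Trithorax and Polycomb proteins were found as opposing keepers of Hox gene expression. Trithorax-type enzymes of the Kmt2 family methylate histone H3 at lysine 4 and help to keep Hox genes on, and leukaemias with rearranged Kmt2a express Hoxa genes at a high level. Polycomb repressive complex 2 (PRC2) methylates lysine 27 of the same histone through Ezh1 or Ezh2, and Polycomb repressive complex 1 (PRC1) carries ubiquitin ligases for histone H2A together with chromobox proteins that read the PRC2 mark. Kdm6a and Kdm6b remove that mark.

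Values are gene counts that the authors had divided by a size factor per sample. Their totals ran from 6671686 to 6734284 in NA MPs and from 6602851 to 6640172 in WT MPs. A single read was worth between 0.827 and 1.2004 units, which puts the depth between 5557718 and 8106140 reads per sample and a floor of 3 reads between 2.48 and 3.60 units. Such floors cover counting error only. All members lay well above it, with means over the 9 samples from 57.9 (Pcgf1) to 2625 (Kmt2d), and all 48 passed the filter on low values.

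Hox genes, their cofactors and Nup98 were read as a check of the labels. Nup98, which contributes to the fusion, had values of 963, 839, 996 and 1025 in NA MPs and of 567, 569, 628, 626 and 606 in WT MPs. Its groups did not overlap, with a log2 fold change of 0.67 ± 0.05 (SE, limma adjusted p = 1.26e-13). Hoxa9 rose by a log2 fold change of 2.03, Hoxa7 by 1.69, Hoxa5 by 2.37, Hoxa10 by 3.88, Hoxb4 by 1.04 and Pbx3 by 3.01. The fusion holds the homeodomain of HOXA10, so reads of the fusion may count toward Hoxa10. How much of the Hoxa10 value comes from the endogenous gene was not tested. Hoxb5 had values from 39.0 to 54.0 in NA MPs and from 0.856 to 3.24 in WT MPs, at or under the floor of 3 reads, so no fold is given for it. Meis1, a cofactor of Hox proteins, had a log2 fold change of 0.01 (adjusted p = 0.946). A fold change here is on the scale of log2(value + 1), which understates the change of low genes. Mpo, which marks myeloid progenitors, was the most abundant gene of the gate list and had values from 102497 to 112142 among NA MPs and from 101201 to 105687 among WT MPs, with overlap. Its log2 fold change of 0.05 did not pass (adjusted p = 0.175), passed as higher without NA MP replicate 1 and passed as lower with GC content and length corrected. Xist ran from 11560 to 15010 over the 9 samples and the Y-linked genes Kdm5d, Ddx3y and Eif2s3y were at 0 in all of them, while Uty was at 1.2, or 1 read, in NA MP replicate 1 and at 0 elsewhere. These X and Y genes were chosen after their values were seen.

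The regulators themselves moved little. Of the 48 members, 18 (37.5%) passed a Benjamini-Hochberg adjusted p of 0.05 in limma, where 6 rose and 12 fell in NA MPs. Of all 11987 tested genes, 34.3% passed, 16.9% as higher and 17.3% as lower, so the members' share was near the background. No member changed as much as 2-fold, and 3 had an absolute log2 fold change of at least 0.3, namely Kdm6b, Cbx7 and Cbx8, all higher in NA MPs. The median absolute log2 fold change was 0.09 over the members and 0.12 over all tested genes, and the median log2 fold change was -0.05 over the members and -0.01 over all tested genes. Tested genes include some with lower values than any member, and no set matched for level was compared. The values of both groups did not overlap for 12 members (25.0%) and for 26.3% of all tested genes. With a smooth correction for GC content and length, 18 members were again past the threshold, 13 of them among the former 18. In that fit 4250 of 11644 genes passed. Higher genes were 49.4% of all calls in the 11987 tested genes and 38.2% of those with that correction, which was made for the 11644 genes of known GC content and length. Among the calls without the correction, those same 11644 genes had 49.2% higher. RNA was measured in bulk, so fewer cells of a type and less RNA per cell cannot be told apart.

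**Figure D1:**
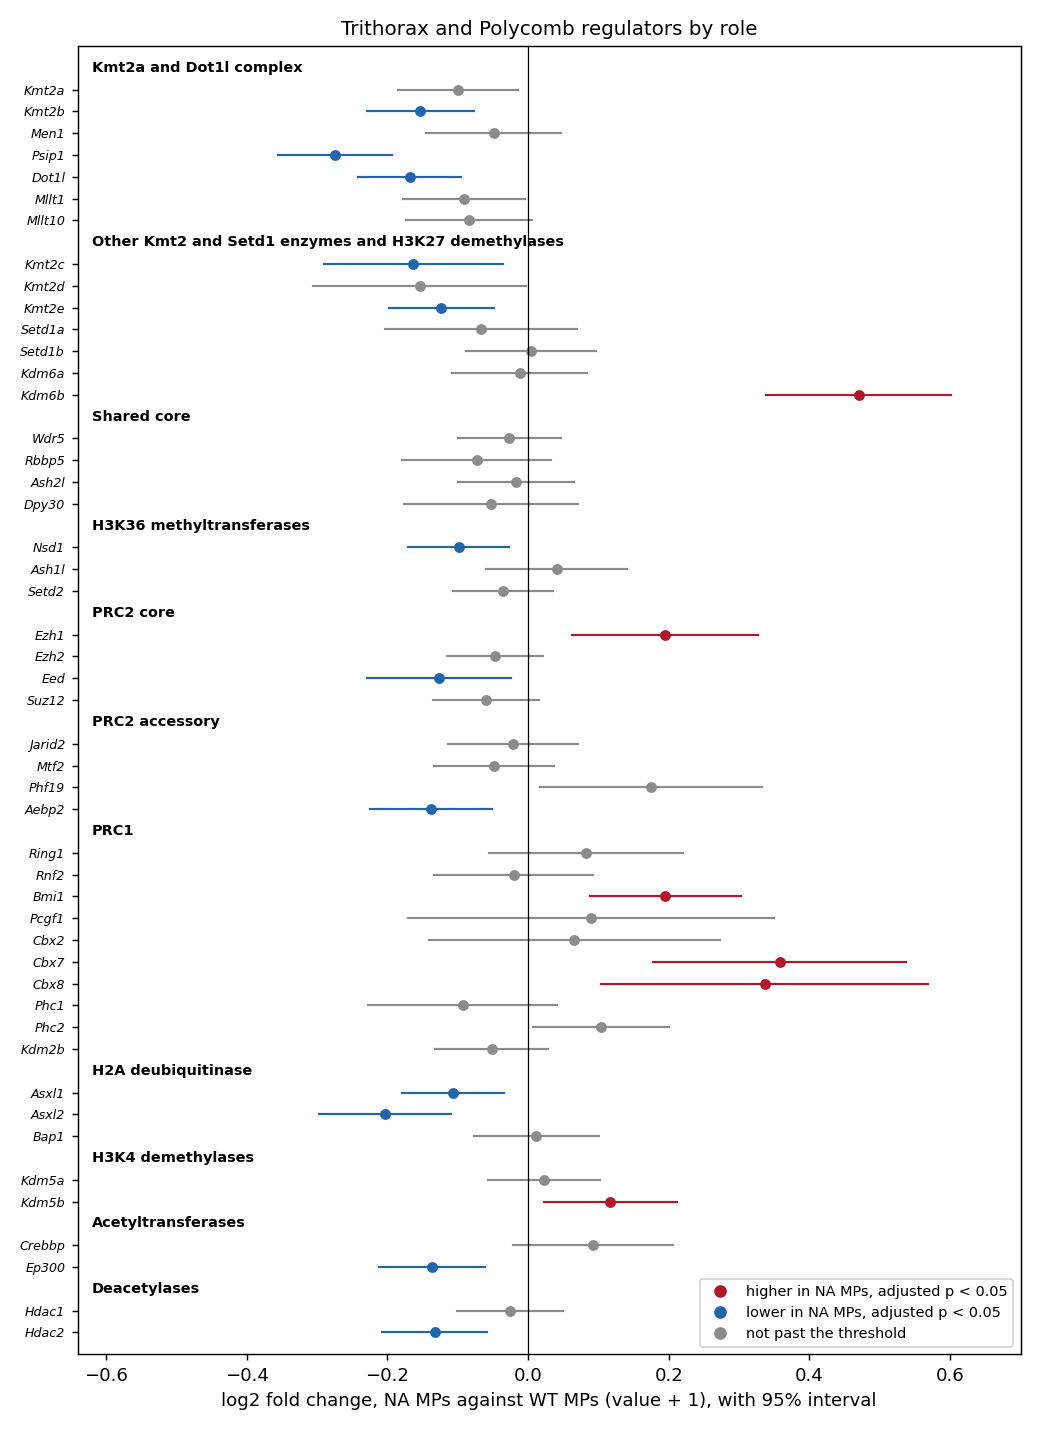
Each point is the log2 fold change of a member between NA MPs (4 samples) and WT MPs (5 samples), with its 95% confidence interval, ordered by role. Red points are the 6 members higher in NA MPs, blue points the 12 lower and grey points those not past the threshold, and most lie between -0.2 and 0.2.

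Of the 7 genes of the Kmt2a and Dot1l complexes, which write active marks on histone H3, 3 fell in NA MPs, none rose and 4 did not pass, beside the 17.3% of all tested genes that fell. Psip1, which tethers menin and Kmt2a to chromatin, fell most among the members. Its values were 938, 815, 864 and 902 in NA MPs and 1014, 1053, 1103, 1107 and 1039.9 in WT MPs. Every NA MP sample lay below every WT MP sample, by a log2 fold change of -0.27 ± 0.04 (SE, limma adjusted p = 4.52e-07). Dot1l, a histone H3 methyltransferase of transcribed genes, had means of 1060 ± 50.5 (SD, n = 4) and 1190.1 ± 20.04 (SD, n = 5), a log2 fold change of -0.17. Kmt2b, a paralogue of Kmt2a, had a log2 fold change of -0.15. Both passed the test without overlap between groups, at adjusted p of 0.000269 and 0.00123 from limma. Kmt2a itself, the founding MLL enzyme, had values of 1407, 1496, 1353 and 1597 in NA MPs and 1446, 1597, 1568, 1572 and 1646 in WT MPs. Those ranges overlap, and its log2 fold change of -0.10 did not pass (adjusted p = 0.0667). Kmt2a passed when NA MP replicate 4 or WT MP replicate 1 was left out and with scaling by library size or quantiles, and its adjusted p ran from 0.00445 to 0.399 over the alternatives. Men1, Mllt1 and Mllt10, which encode menin and a pair of Dot1l-linked proteins, had log2 fold changes of -0.05, -0.09 and -0.08 and did not pass. With the correction for GC content and length Men1 passed, over a range of adjusted p from 0.00525 to 0.822. Mllt1 passed with that correction or without NA MP replicate 3, over a range from 8.32e-05 to 0.265. Mllt10 passed without WT MP replicate 1, over a range from 0.0319 to 0.539.

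Among the other Kmt2 and Setd1 enzymes and the H3K27 demethylases, 1 of 7 rose and 2 fell, beside 16.9% and 17.3% of all tested genes. Kdm6b, the H3K27 demethylase also known as Jmjd3, rose most of all members. Its values were 346, 375, 445 and 429 in NA MPs and 298, 264, 299, 272 and 301 in WT MPs. The lowest NA MP sample exceeded the highest WT MP sample, and the log2 fold change was 0.47 ± 0.07 (SE, limma adjusted p = 1.93e-07). An exon of the antisense gene Kdm6bos overlaps 286 bases of Kdm6b, so part of its value is uncertain. The other H3K27 demethylase, the X-linked gene Kdm6a, had means of 584 and 589 and a log2 fold change of -0.01, with a 95% interval from -0.11 to 0.08. Kmt2c and Kmt2d, which methylate H3K4 at enhancers, had log2 fold changes of -0.16 and -0.15. Kmt2c passed narrowly (adjusted p = 0.0455) and lost the call without any one of NA MP replicates 1, 2 and 3 and WT MP replicates 2, 3, 4 and 5, with an adjusted p of up to 0.185. Kmt2c also lost it with voom weights and with GC content and length corrected, where its log2 fold change was -0.09. Kmt2d did not pass (adjusted p = 0.111), but passed without NA MP replicate 4, with GC content and length corrected and without robust variances, among other alternatives, and its adjusted p ran from 3.58e-05 to 0.251. Kmt2e fell by 0.12 on the log2 scale (adjusted p = 0.00773), a call lost under the correction for GC content and length, where the log2 fold change was -0.07, with an adjusted p of up to 0.108. Setd1a and Setd1b, the enzymes of the COMPASS complexes, had log2 fold changes of -0.07 and 0.00363. Kmt2c, Kmt2e and Setd1a also overlap exons of other genes, by up to 274, 972 and 3523 bases, with the same uncertainty as for Kdm6b.

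No gene of the shared core of the Kmt2 and Setd1 complexes passed the threshold. Wdr5, Rbbp5, Ash2l and Dpy30, subunits that Kmt2a to Kmt2d and the Setd1 enzymes share, had log2 fold changes of -0.03, -0.07, -0.02 and -0.05. Rbbp5 had the largest, with values of 437, 452, 445 and 464 in NA MPs and 541, 450.0, 469.7, 457 and 452 in WT MPs. WT MP replicate 1 lay above all other samples for this gene. The intervals of the 4 genes ran no lower than -0.18 and no higher than 0.07. Wdr5 passed with the correction for GC content and length, over a range of adjusted p from 0.0428 to 0.825.

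Of the H3K36 methyltransferases, which oppose Polycomb on transcribed chromatin, 1 of 3 passed (33.3%, near the 34.3% of all tested genes). Nsd1 had values of 1467, 1481, 1341 and 1441 in NA MPs and 1460.1, 1504, 1562, 1514 and 1629 in WT MPs. The groups overlap, and its log2 fold change was -0.10 ± 0.04 (SE, limma adjusted p = 0.0277). The call was lost without NA MP replicate 3, WT MP replicate 3 or WT MP replicate 5 and under the correction for GC content and length, where the log2 fold change was -0.03. With the replicate number as a block it was -0.08 and did not pass (adjusted p = 0.131), and the adjusted p ran up to 0.803 over the alternatives. Ash1l and Setd2 had log2 fold changes of 0.04 and -0.04. Ash1l passed only with a replicate block and GC content and length corrected together, at the lowest adjusted p of its range, 0.0333 to 0.916.

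The PRC2 core holds the enzymes and scaffold of the complex, and of its 4 genes 1 rose and 1 fell, beside 16.9% and 17.3% of all tested genes. Ezh1, the methyltransferase typical of cells that divide little, had values of 269, 292, 301 and 313 in NA MPs and 237, 276, 248, 279 and 243 in WT MPs. NA MP replicate 1 lay within the WT MP range, and the log2 fold change was 0.19 ± 0.07 (SE, limma adjusted p = 0.0177). Without NA MP replicate 4 or WT MP replicate 1 the call of Ezh1 was lost. It was also lost with a replicate block and GC content and length corrected together, and its adjusted p reached 0.0770 over the alternatives. Ezh2, its counterpart in dividing cells, had means of 1201 ± 11.4 (SD, n = 4) and 1240.3 ± 27.5 (SD, n = 5), and a log2 fold change of -0.05 whose 95% interval ran from -0.11 to 0.02. Suz12, the scaffold of PRC2, had a log2 fold change of -0.06 and did not pass. Eed, which reads the mark that PRC2 writes, fell by 0.13 on the log2 scale at an adjusted p of 0.0494. Leaving out any sample other than NA MP replicate 3 ended that call, as did recomputed size factors, quantile scaling, other filters and a replicate block (adjusted p = 0.127), and its adjusted p reached 0.148.

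Among the accessory subunits of PRC2, Aebp2 fell (log2 fold change of -0.14, limma adjusted p = 0.0102) and the other 3 did not pass, where 17.3% of all tested genes fell. The call of Aebp2 was lost without NA MP replicate 2 and under the correction for GC content and length, where the log2 fold change was -0.08, with an adjusted p of up to 0.136. Phf19, a Polycomb-like protein, had the largest change here, with values of 170.5, 232, 212 and 215 in NA MPs and 168, 181, 186, 197 and 179.8 in WT MPs. NA MP replicate 1 sat among the WT MP samples and the other NA MP samples lay above them. Its log2 fold change of 0.17 did not pass with all samples (adjusted p = 0.0810) and passed without NA MP replicate 1, at the lowest adjusted p of its alternatives, 0.00610. Jarid2 and Mtf2 had log2 fold changes of -0.02 and -0.05.

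In PRC1, which ubiquitinates histone H2A and compacts chromatin, 3 of 10 genes rose and none fell, beside 16.9% and 17.3% of all tested genes. Cbx7, a chromobox protein found in PRC1 of blood stem cells, had values of 168, 142, 137 and 142 in NA MPs and 112, 121, 107, 106 and 127 in WT MPs. The groups did not overlap, and NA MP replicate 1 stood above the others. Its log2 fold change was 0.36 ± 0.09 (SE, limma adjusted p = 0.00145). Cbx8, another chromobox protein, had values of 84.0, 79.9, 77.9 and 74.4 in NA MPs and 62.6, 58.2, 56.0, 66.0 and 69.9 in WT MPs. All NA MP samples lay above all WT MP samples, by a log2 fold change of 0.34 ± 0.12 (SE, limma adjusted p = 0.0204). The call of Cbx8 was lost without NA MP replicate 1 or WT MP replicate 3, with quantile scaling and under the correction for GC content and length, with an adjusted p of up to 0.0782. Bmi1, a PRC1 subunit required for self-renewal of blood stem cells, had values of 429, 432, 477 and 493 in NA MPs and 406, 391, 391, 423 and 384 in WT MPs. Its groups did not overlap either, with a log2 fold change of 0.20 ± 0.05 (SE, limma adjusted p = 0.00351). The ligase genes Ring1 and Rnf2 had log2 fold changes of 0.08 and -0.02, and Phc1 and Phc2 of -0.09 and 0.10. Pcgf1 and Kdm2b, of a PRC1 that binds unmethylated CpG sites, had log2 fold changes of 0.09 and -0.05. None of these 6 genes passed, nor did Cbx2, at 0.07. Phc2 passed with quantile scaling, over a range of adjusted p from 0.0471 to 0.916. Kdm2b passed only with a replicate block and GC content and length corrected together, at the lowest adjusted p of its range, 0.0439 to 0.694.

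**Figure D2:**
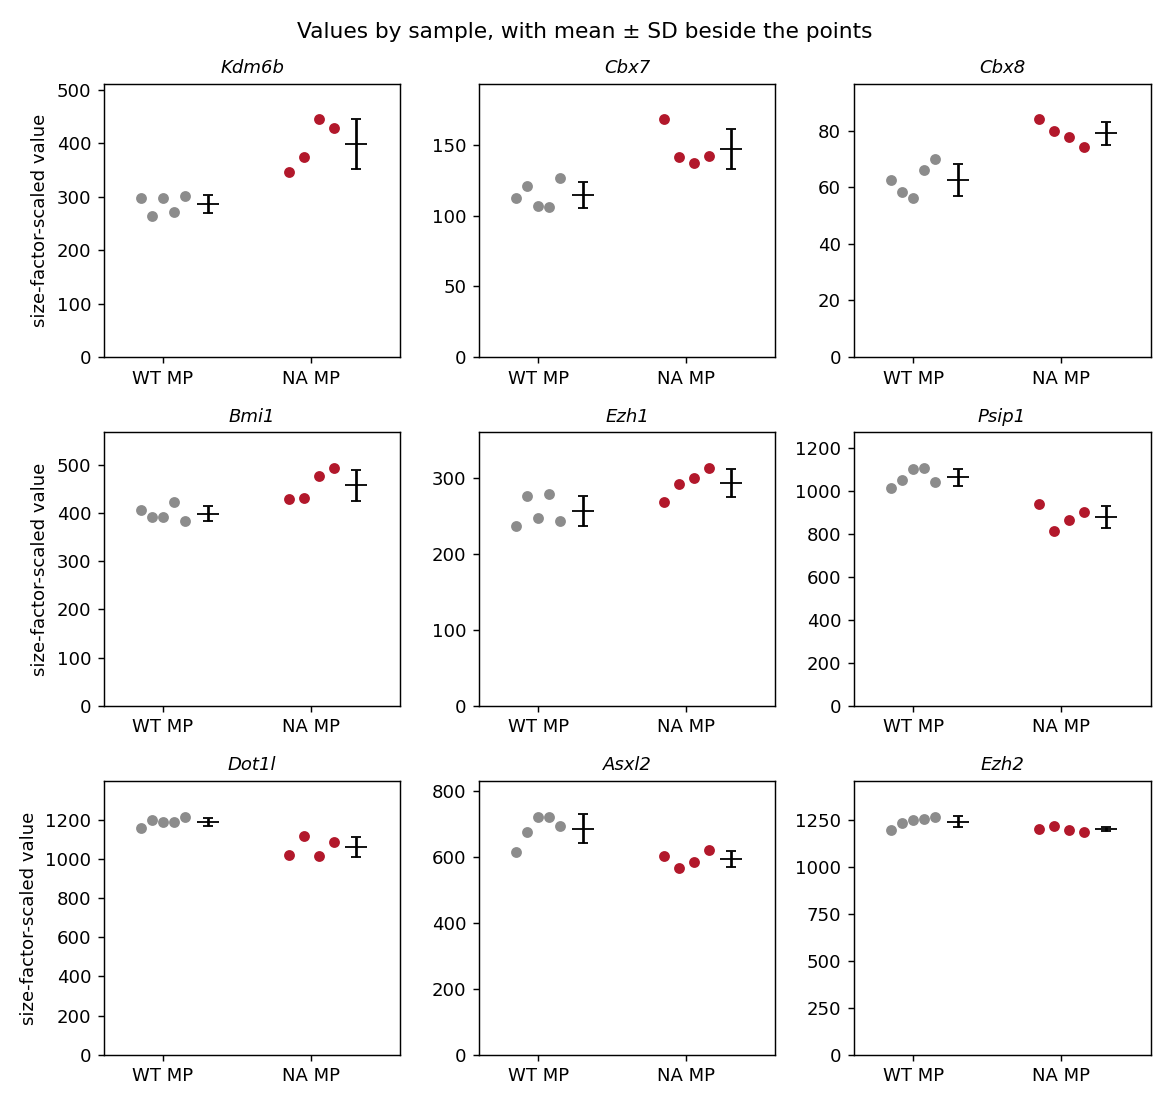
Size-factor-scaled values of 9 members in each WT MP sample (grey) and NA MP sample (red), with the mean and SD of each group beside the points and each axis starting at 0. Kdm6b, Cbx7, Cbx8 and Bmi1 lie higher in every NA MP sample, Psip1 and Dot1l lower, while Ezh1, Asxl2 and Ezh2 overlap between groups.

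The sequences before the starts of these genes are shown for the Polycomb members that rose, with Dot1l and Hdac2 as members that fell. RefSeq (GRCm38.p6) gave 250 bases before the start for 36 of the 48 members. Bases that GENCODE annotates as exon were left out, 6 for Cbx7 and 56 for Cbx8. The RefSeq start of Cbx7 lies within the longer gene that GENCODE annotates at chr15:79915807-79971119, so the annotations differ on its start. Shown are Cbx7 at chr15:79932653-79932896 (minus strand), Cbx8 at chr11:119040970-119041163 (minus strand), Bmi1 at chr2:18676768-18677017 (plus strand), Ezh1 at chr11:101226464-101226713 (minus strand), Dot1l at chr10:80754953-80755202 (plus strand) and Hdac2 at chr10:36974294-36974543 (plus strand). Each reads 5′ to 3′ on the gene's strand, and capitals mark CpG sites.
Cbx7: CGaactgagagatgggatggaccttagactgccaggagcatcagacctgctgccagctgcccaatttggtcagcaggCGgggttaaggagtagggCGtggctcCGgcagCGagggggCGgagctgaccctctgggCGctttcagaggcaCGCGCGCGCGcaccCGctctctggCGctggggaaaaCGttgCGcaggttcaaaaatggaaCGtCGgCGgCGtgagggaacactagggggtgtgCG
Cbx8: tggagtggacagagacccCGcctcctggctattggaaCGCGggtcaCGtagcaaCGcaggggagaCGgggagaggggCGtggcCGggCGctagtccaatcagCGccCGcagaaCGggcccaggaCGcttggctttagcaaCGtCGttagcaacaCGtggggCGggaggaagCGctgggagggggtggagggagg
Bmi1: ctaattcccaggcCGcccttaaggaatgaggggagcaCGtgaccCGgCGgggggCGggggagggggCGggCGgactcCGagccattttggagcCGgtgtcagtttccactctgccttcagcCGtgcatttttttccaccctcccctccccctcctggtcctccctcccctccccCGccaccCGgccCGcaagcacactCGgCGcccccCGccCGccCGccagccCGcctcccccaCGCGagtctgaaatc
Ezh1: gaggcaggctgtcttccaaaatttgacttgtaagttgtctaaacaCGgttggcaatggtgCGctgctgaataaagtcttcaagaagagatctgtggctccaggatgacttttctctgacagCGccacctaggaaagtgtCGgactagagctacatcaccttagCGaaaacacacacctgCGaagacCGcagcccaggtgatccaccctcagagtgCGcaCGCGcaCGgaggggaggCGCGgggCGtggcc
Dot1l: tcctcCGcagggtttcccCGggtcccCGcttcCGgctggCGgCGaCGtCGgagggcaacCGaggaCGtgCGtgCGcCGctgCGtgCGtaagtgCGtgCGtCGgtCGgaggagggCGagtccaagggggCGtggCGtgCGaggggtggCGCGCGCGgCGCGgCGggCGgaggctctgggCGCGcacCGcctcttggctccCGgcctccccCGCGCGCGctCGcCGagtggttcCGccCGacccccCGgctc
Hdac2: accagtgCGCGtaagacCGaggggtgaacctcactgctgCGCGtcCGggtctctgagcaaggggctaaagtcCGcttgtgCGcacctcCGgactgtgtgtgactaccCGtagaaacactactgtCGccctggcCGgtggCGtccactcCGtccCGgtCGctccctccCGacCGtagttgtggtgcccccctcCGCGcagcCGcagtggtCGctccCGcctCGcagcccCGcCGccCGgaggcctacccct

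CpG sites, at which Polycomb complexes often gather, were counted in these windows. Their median was 23 per 250 bases over 36 members, with a range from 1 to 48, and 6 over all 32851 promoters in the table. Those promoters were not limited to the genes tested here, so they are no matched background for the members. The median was 21 for 5 members that rose, 26 for 8 that fell and 23 for 23 that did not pass, and these medians were not compared by a test. Dot1l had 44 sites, more than in 99.5% of all promoters, and Ezh1 had 14, more than in 70.6%. Motifs were searched on both strands and chosen after the values were seen. The AP-1 motif TGACTCA was in 0 of the 36 windows and in 4.46% of all promoters. The CRE motif TGACGTCA was in Cbx8 alone, within the bases left out, and in 1.55% of all promoters. The E2F motif TTTCCCGC was in Phf19 and Suz12 and in 0.895% of all promoters. A match is a description of letters and not a binding site.

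Among the H2A deubiquitinase genes, which reverse the mark of PRC1, 2 of 3 fell, beside 17.3% of all tested genes. Asxl2 had values of 605, 568, 585 and 623 in NA MPs and 615, 678, 721, 722 and 695 in WT MPs. WT MP replicate 1 lay within the NA MP range, and the log2 fold change was -0.20 ± 0.05 (SE, limma adjusted p = 0.000571). With GC content and length corrected it was -0.11, and Asxl2 still passed, over a range of adjusted p from 3.63e-05 to 0.0434. Asxl1, a gene often mutated in myeloid disease, fell by 0.11 on the log2 scale (adjusted p = 0.0177), a call lost without NA MP replicate 3 and with a replicate block (adjusted p = 0.0509), with an adjusted p of up to 0.0715. Bap1, the catalytic subunit, had a log2 fold change of 0.01.

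The H3K4 demethylases, acetyltransferases and deacetylases each had 1 of 2 genes past the threshold, beside 34.3% of all tested genes. Kdm5b, an H3K4 demethylase, had values of 574, 545, 539 and 524 in NA MPs and 493, 494, 526, 483 and 518 in WT MPs. Only NA MP replicate 4 overlapped the WT MP samples, and the log2 fold change was 0.12 ± 0.05 (SE, limma adjusted p = 0.0487). That call was lost without NA MP replicate 1, 2 or 3 or WT MP replicate 1, 2 or 4, and also with scaling by library size, with no filter, with voom weights and with a replicate block (adjusted p = 0.0587), with an adjusted p of up to 0.162. Ep300, the acetyltransferase p300, had values of 979.6, 960.5, 961 and 997 in NA MPs and 1009, 1079.8, 1138, 1052 and 1079.95 in WT MPs. It was lower in all NA MP samples, by a log2 fold change of -0.14 ± 0.04 (SE, limma adjusted p = 0.00381). Hdac2, a class I deacetylase, had values of 1032, 968, 994 and 978 in NA MPs and 1049, 1076, 1115, 1147 and 1059 in WT MPs. Its groups did not overlap either, with a log2 fold change of -0.13 ± 0.04 (SE, limma adjusted p = 0.00428). Their paralogues Kdm5a, Crebbp and Hdac1 had log2 fold changes of 0.02, 0.09 and -0.03 and did not pass. Kdm5a passed with the correction for GC content and length, over a range of adjusted p from 0.0297 to 0.976.

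Levels can be compared between genes per kb of exon. In WT MPs Hdac1 stood highest at 506 ± 14.04 units per kb (SD, n = 5), followed by Ezh2 at 443 ± 9.82 and Wdr5 at 387 ± 13.04. Cbx8 was lowest at 17.5 ± 1.58 units per kb, below Cbx2 at 27.02 ± 3.71, Crebbp at 32.2 ± 1.09 and Cbx7 at 33.7 ± 2.63. Crebbp and Cbx7 did not differ beyond their spread. Ezh1 and Kdm6b had WT MP levels of 42.2 ± 3.22 and 43.1 ± 2.62 units per kb, likewise within their spread. In NA MPs the level of Kdm6b was 59.9 ± 6.97 units per kb and that of Ezh1 48.3 ± 3.07. The 3 members with the largest rises were thus among the 6 lowest of 48 in WT MPs. A rise is measured against the same WT MP values, and fold changes of low genes are less exact. That ranking is therefore a description only.

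**Figure D3:**
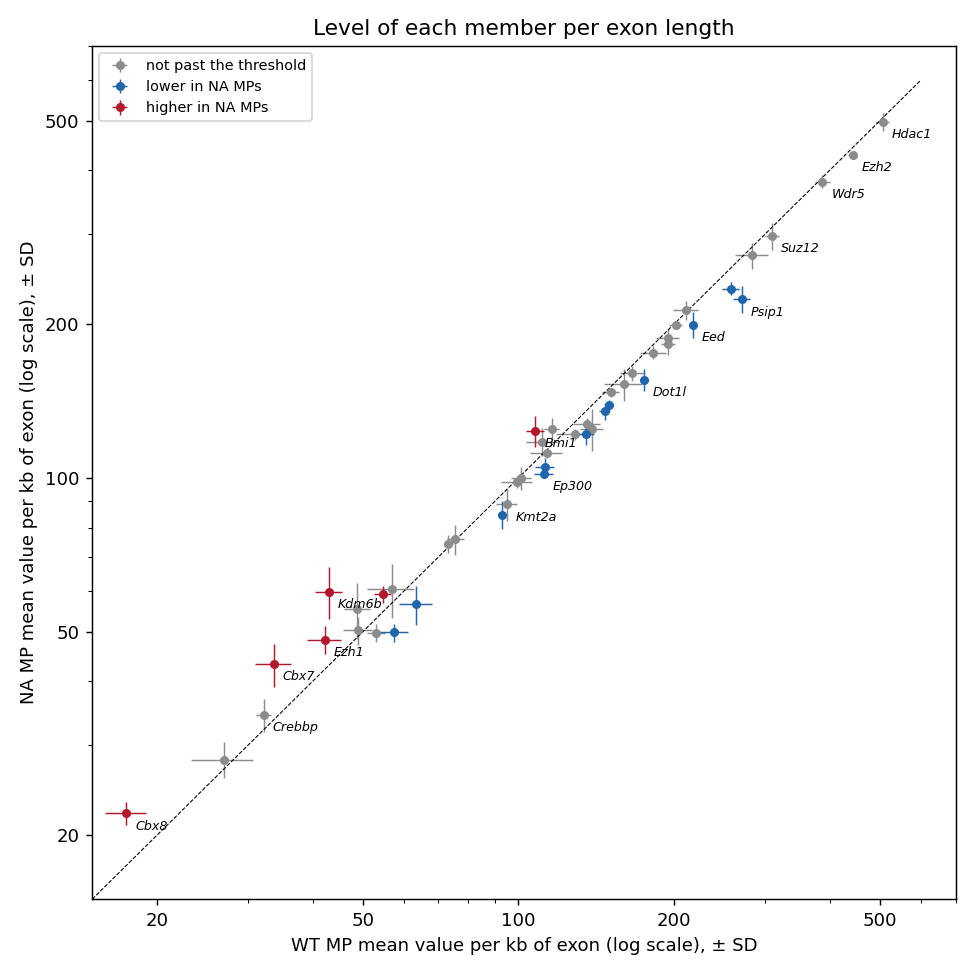
Mean value per kb of exon of each member in WT MPs (x axis) and NA MPs (y axis), both on log scales, with bars for the SD over 5 and 4 samples. The dashed line marks equal levels, and Kdm6b, Cbx7, Cbx8 and Ezh1 lie above it at the low end while Hdac1, Ezh2 and Wdr5 lie near it at the high end.

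Paralogues with overlapping functions were compared as ratios within each sample, in which the scaling between libraries nearly cancels. None of 11 pairs passed an adjusted p of 0.05 in a permutation test that was exact and two-sided, with 126 possible arrangements of the group labels, and 5 had an unadjusted p under 0.05. The smallest p that this design allows is 0.0159, which 2 pairs reached. Had 4 pairs reached it, that would have been enough for an adjusted p under 0.05. Both pairs at the smallest p had groups that did not overlap. The log2 ratio of Kdm6a to Kdm6b was 0.721, 0.601, 0.416 and 0.484 in NA MPs and 0.964, 1.06, 0.931, 1.27 and 0.967 in WT MPs, a difference of -0.48 (exact permutation adjusted p = 0.0873). The log2 ratio of Crebbp to Ep300 averaged -1.39 ± 0.09 (SD) in NA MPs and -1.62 ± 0.10 in WT MPs, a difference of 0.23 with the same adjusted p. The ratio of Ezh1 to Ezh2 differed by 0.24 and that of Phc1 to Phc2 by -0.20, each at an unadjusted exact permutation p of 0.0317. Kdm5a to Kdm5b differed by -0.09 (unadjusted exact permutation p = 0.0476). The other 6 pairs had differences from -0.07 to 0.11.

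**Figure D4:**
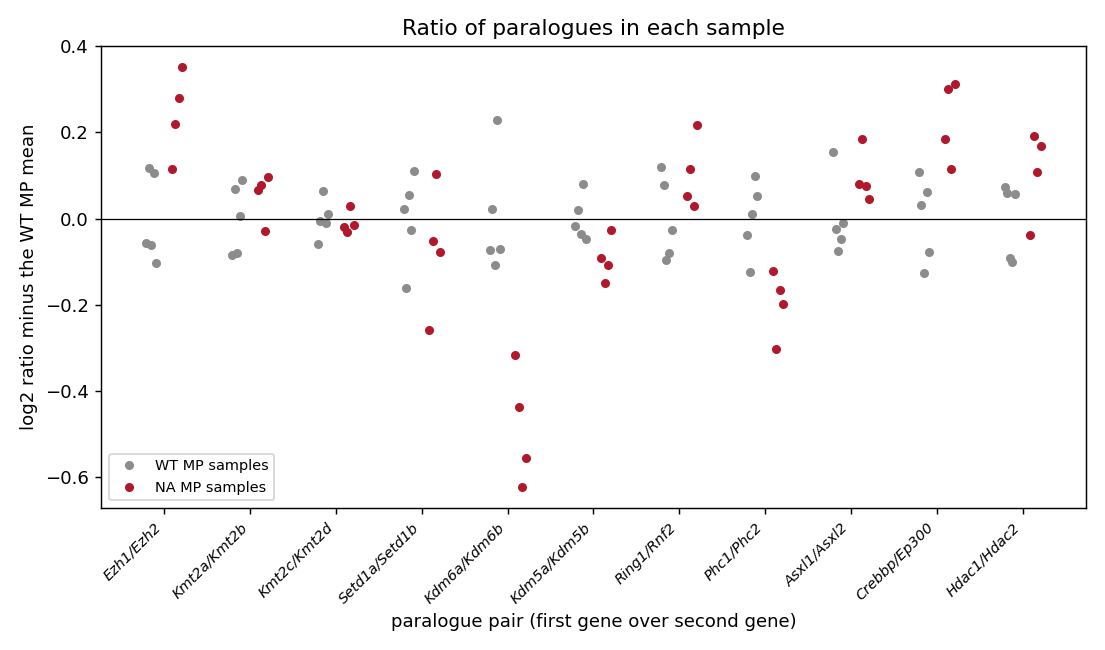
Log2 ratio of the paralogues of each pair in every sample, minus the mean ratio of the WT MP samples (y axis), for 11 pairs (x axis), with WT MP samples in grey and NA MP samples in red. The groups part without overlap for Kdm6a/Kdm6b and Crebbp/Ep300.

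Further subunits and partners of these complexes were read from a list of 68 genes, 67 of which were tested, and 24 passed (35.8%, near the 34.3% of all tested genes), with 8 higher and 16 lower. They include rises larger than any among the members. Auts2, a subunit of a variant PRC1, had values of 253, 272, 225 and 235 in NA MPs and 26.98, 18.8, 20.4, 17.0 and 12.1 in WT MPs. The groups are far apart, with a log2 fold change of 3.66 ± 0.15 (SE, limma adjusted p = 1.83e-20). Sfmbt2, a Polycomb group protein, had means of 34.5 ± 4.84 (SD, n = 4) and 15.9 ± 4.53 (SD, n = 5) and rose by a log2 fold change of 1.10. Epop, a PRC2 accessory protein, had values of 214, 209, 189 and 180.2 in NA MPs and 139, 108, 115, 91.1 and 107 in WT MPs, all lower than in NA MPs. Its log2 fold change was 0.83 ± 0.09 (SE, limma adjusted p = 1.53e-09). Phf1, the Polycomb-like relative of Mtf2 and Phf19, rose by a log2 fold change of 0.40, and Aff3, of the family of elongation scaffolds fused to Kmt2a in leukaemia, by 0.39. On the lower side were Ell2 and Mllt3, an elongation factor and a chromatin reader of the same elongation machinery, with log2 fold changes of -0.49 and -0.44. Kdm5c, an X-linked H3K4 demethylase, had means of 1029 ± 23.3 (SD, n = 4) and 1369.8 ± 31.3 (SD, n = 5), a log2 fold change of -0.41 (limma adjusted p = 2.63e-13). Rybp, a subunit of variant PRC1, fell by 0.28 on the log2 scale. Hcfc1, the most abundant gene of the list over the 9 samples and in WT MPs but not in NA MPs, fell by 0.15.

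Of 16 trithorax remodelling genes, mostly SWI/SNF and CHD type remodellers, 6 passed (37.5%, near the 34.3% of all tested genes), with 2 higher and 4 lower. Chd7 fell most, by 0.32 on the log2 scale (limma adjusted p = 2.03e-05), with means of 364 ± 39.0 (SD, n = 4) and 453 ± 15.96 (SD, n = 5). Arid1a, the most abundant of them, had a log2 fold change of 0.02 (adjusted p = 0.634).

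**Figure D5:**
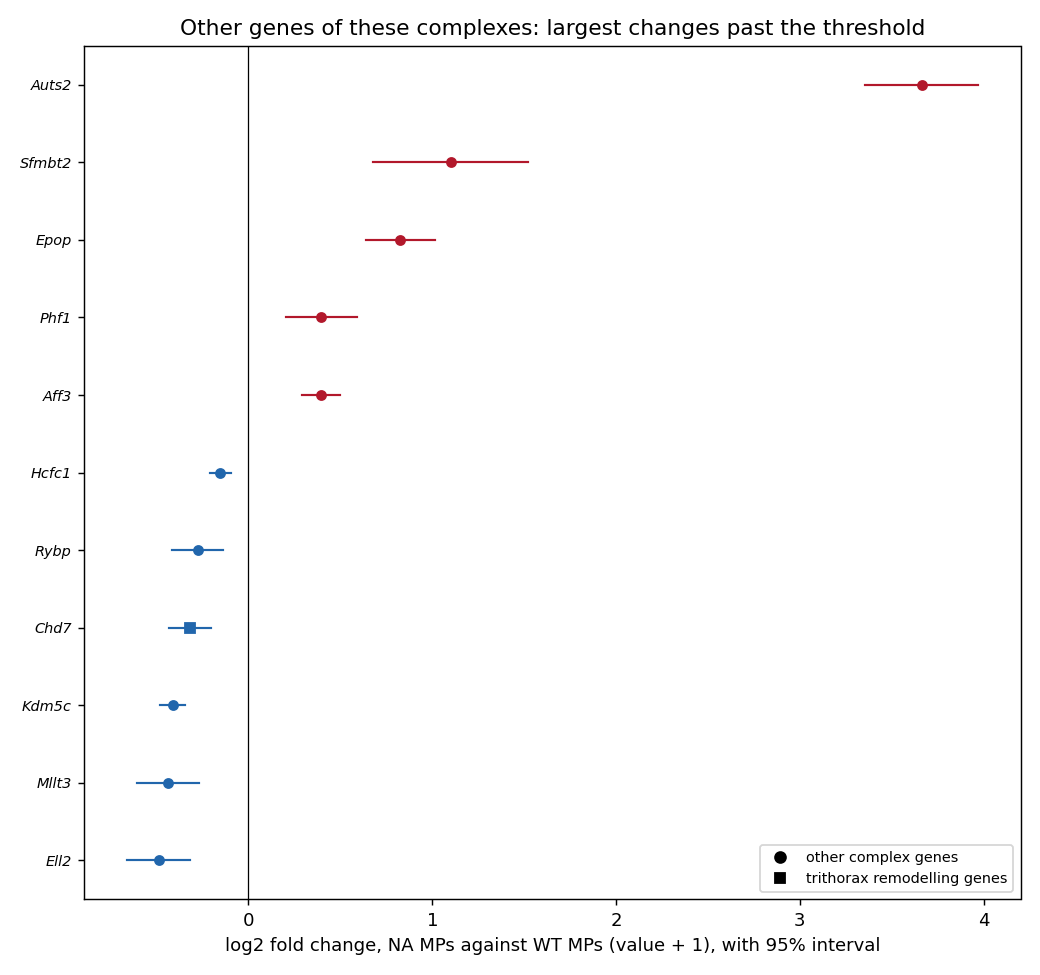
Log2 fold change with its 95% confidence interval for the 5 largest rises and 5 largest falls past the threshold among the other complex genes (circles) and trithorax remodelling genes (squares), with Hcfc1 as the most abundant over the 9 samples, red for higher and blue for lower in NA MPs. Auts2 at 3.66 stands apart from all others, followed by Sfmbt2 at 1.10 and Epop at 0.83.

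Genes of proliferation, stress response and other cell types moved between the same groups, and their part in the members' changes was not tested. Their counts stand beside all tested genes, of which 16.9% rose and 17.3% fell. Of 22 proliferation genes 12 fell and none rose. Their summed value was 37945, 39994, 40636 and 39783 in NA MPs and 43142, 43557, 42585, 42532 and 42449 in WT MPs, and Mki67, the most abundant over the 9 samples and in WT MPs but not in NA MPs, fell by 0.43 on the log2 scale. Of 16 tested immediate early genes, which respond within minutes to stimuli or handling, 14 rose and none fell. All 18 listed genes, tested or not, summed to 20188, 13981, 28526 and 30569 in NA MPs and 3147, 4003, 4823, 6522 and 5119 in WT MPs, with Jun as the most abundant, at a log2 fold change of 2.05.

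Marker lists of other lineages were read in the same way, with sums over every listed gene in the table, tested or not. Each count below is to be read beside the 16.9% of all tested genes that rose and the 17.3% that fell. These lists are short, so 1 or 2 genes can move a share far. All 12 pro-B and pre-B genes rose, with sums of 1459.7, 2574, 2573 and 1928 in NA MPs and of 374, 403, 396, 378 and 403 in WT MPs, and Dntt as the most abundant over the 9 samples and in NA MPs but not in WT MPs. Of 9 tested erythroid genes 7 fell and none rose, with sums of 5785, 4827, 5215 and 6060.3 in NA MPs and of 9047.5, 9180.6, 8481, 8307 and 8563 in WT MPs, and Car1 as the most abundant. Mast and basophil genes had 5 higher and 1 lower of 7, with sums of 4312, 4003, 3944 and 3755 against 2924.5, 2873, 2879, 2805 and 2666, and Hdc, the most abundant over the 9 samples and in WT MPs but not in NA MPs, was the one lower. Of 3 tested eosinophil genes 2 fell, with sums of 442, 1025, 801 and 601 against 1523, 1384, 1431.5, 1326 and 1180.6, and Prg2 as the most abundant. Neutrophil genes had 3 higher and 1 lower of 7, with sums of 3368, 3936, 5246 and 5176 against 2808, 3177, 3107.5, 3179.9 and 3338, and S100a8 as the most abundant. Monocyte and macrophage genes had 3 higher and 2 lower of 6, with sums of 6846, 7753, 7797 and 7455 against 6573, 6668.5, 6576, 7021 and 6350.2, and Ly6c2 as the most abundant. Megakaryocyte genes had 1 higher and 2 lower of 6, with sums of 1623, 1512, 1402 and 1404 against 1546, 1562, 1492, 1432 and 1395, and Itga2b as the most abundant. Stem cell genes, Hoxb5 among them, had 4 higher of 5 tested, with sums of 526, 463, 435 and 466 against 193, 196, 205, 203 and 207, Hlf as the most abundant and Fgd5 at or under the floor of 3 reads in all 9 samples. The gate list had 3 higher and 1 lower of 8, with sums of 159240, 175000, 171670 and 164930 against 161610, 158810, 161780, 159440 and 155340. Of the T cell list only Lck could be tested, and it rose. That list summed to 45.6, 58.6, 61.2 and 66.1 against 14.03, 11.1, 13.2, 18.01 and 18.6, with Cd3e and Cd3g at 0 in all 9 samples. Of the mature B list only Cd22 could be tested, and it rose, with list sums of 10.8, 25.3, 21.2 and 21.5 against 15.1, 11.1, 10.2, 11.01 and 11.2. The call of Cd22 (limma adjusted p = 0.0404) was lost without NA MP replicate 2, 3 or 4 or WT MP replicate 2, 3, 4 or 5. It was also lost with no filter on low values, and its adjusted p reached 0.170 over the alternatives. Itga2b lost its call with GC content and length corrected. S100a8 did not pass (adjusted p = 0.125) but passed without NA MP replicate 1 or without robust variances, over a range from 8.83e-09 to 0.391. Prg2 (adjusted p = 0.00915) lost its call with the replicate number as a block, at the highest adjusted p of its alternatives, 0.0642.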

How the data were processed

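RNA of 4 NA MP and 5 WT MP samples was prepared with a TruSeq kit, and the submitters' processing notes name bcl2fastq, RSEM, DESeq2 and mm10, with no versions or annotation. The authors deposited 1 signal per gene and sample, a count that was already divided by a size factor. After division by the worth of 1 read, from 97.3% to 97.7% of the values above 0 were within 0.02 of a whole number, against 3.06% to 36.3% as deposited. The values were therefore not treated as raw counts, and the planned count model was replaced by limma 3.58.1 in R 4.3.3.

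Genes with a value of at least 10 in at least 4 samples were tested, 11987 in all. The fit used log2(value + 1), group alone, an intensity-dependent trend and robust variances, with Benjamini-Hochberg adjustment over all tested genes and a threshold of 0.05. It was tested on simulated data. Ratios of paralogues, with 0.5 added to each value, were compared with permutation tests, exact and two-sided, adjusted over 11 pairs. Exon lengths and overlaps came from GENCODE M21. There, 14 members overlap an exon of another gene, 6 of them past the threshold, and whether counting used strand is not given in the sources used here.

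Every member is accounted for. Values in all samples are given for members past the threshold with an absolute log2 fold change of at least 0.3 and for the member with the largest change in each role group, and for further members where they help. Of the other complex and trithorax remodelling genes the 5 largest rises and falls are named, with the most abundant gene of each list. Other lists covered Hox context, proliferation, immediate early genes and cell type markers (myeloid progenitor gate, erythroid, megakaryocyte, pro-B and pre-B, mature B, T, mast and basophil, eosinophil, neutrophil, monocyte and macrophage, stem cell). Members and lists were chosen with earlier results of these data known. Alternatives were other scalings, filters, pseudocounts and thresholds, a correction for GC content and length, a replicate block, and each sample left out.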

Additional observations from a re-analysis of the deposited data

Results flagged for a closer look

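In 12 of 218 groups of values (5.50%) a sample stood far from the rest, with a gap to its nearest neighbour above Dixon's 95% critical value as a share of the range. Chance alone gives about 1 in 20. WT MP replicate 1 was the sample in 4 of these, and WT MP replicate 3 and NA MP replicate 1 in 3 each.

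Among members, Cbx7 was 168 in NA MP replicate 1 against 137 to 142 in the other NA MPs (share 0.832). Rbbp5 was 541 in WT MP replicate 1 against 450.0 to 469.7 in the other WT MPs (share 0.783). Bap1 was 659 in WT MP replicate 3 against 739 to 759 (share 0.805). Phc1 was 213 in WT MP replicate 2 against 231 to 235 (share 0.825). The log2 ratio of Asxl1 to Asxl2 was 0.764 in WT MP replicate 1 against 0.532 to 0.599 (share 0.712).

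The Kmt2a and Dot1l complex genes summed to 6601 in WT MP replicate 1 against 6984 to 7095 in the other WT MPs (share 0.775). The H3K4 demethylases summed to 1432 in NA MP replicate 1 against 1328 to 1344 (share 0.850). Outside the members, Aff3 was 428 in WT MP replicate 3 against 455 to 459 (share 0.870) and Hcfc1 was 3246 there against 3152 to 3167 (share 0.837). Kdm5c was 994 in NA MP replicate 1 against 1037 to 1042 in the other NA MPs (share 0.900). Phf1 was 83.1 in WT MP replicate 1 against 105 to 112 (share 0.765), and Hdc was 1221 in WT MP replicate 5 against 1316 to 1351 (share 0.729).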

How the results depend on the processing

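Counts of all genes, members and other complex genes and the fold changes of named genes were recomputed under 23 alternatives (22 for Hoxa10, Hoxb5, Cd22 and Lck, which had values under 10 in some samples) and paralogue ratios under 12. Counts of the other lists, list sums, levels per kb and CpG counts had none. Of the 23, 5 were chosen after seeing the data (rounded values, pseudocounts of 0.5 and 5, quantile normalization and voom weights). Of the 18 members past the threshold, 9 passed under all of these alternatives, namely Kmt2b, Psip1, Dot1l, Kdm6b, Bmi1, Cbx7, Asxl2, Ep300 and Hdac2, and 9 lost the call under at least 1. Another 11 members gained it under at least 1. No member past the threshold changed direction. An adjusted p threshold of 0.01 left 10 members, 3 higher and 7 lower, the stricter threshold being its own cause. At that threshold 2857 of all 11987 tested genes passed. Mpo, of the gate list, was reversed to log2 fold changes of -0.06311 with the correction for GC content and length and -0.06899 with the replicate block and that correction, and the cause was not tested. With a sample left out, the count of members called ran from 14 to 18 (4 to 6 higher, 9 to 13 lower), that of all genes from 3625 to 3937 and that of other complex genes from 21 to 27. The median member log2 fold change ran from -0.05 to -0.03.

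Replicate numbers 1 to 4 occur in both groups. Deviations of same-numbered samples correlated at 0.00616, 0.00314, -0.0204 and 0.0573, and 1 of 4 NA MP samples correlated best with its own number, so the pairing is a shared number only. With the number as a block in 8 samples, 15 members (5 higher, 10 lower), 3686 genes in all and 23 other complex genes passed. With GC content and length corrected in the same fit 18 members passed. Of these, 12 were among the 18 past the threshold without block or correction, and 3921 of 11644 genes passed in that fit. Within those pairs the smallest p for a paralogue ratio is 0.125. The planned edgeR and DESeq2 fits were not run because the deposited values are not counts. At this depth Cbx8 and Pcgf1, with means under 100 units, have the widest intervals among the members.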
